A study of Mus musculus with 4 samples.

Results

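The genes described here are 41 mouse genes of the lysosome: 9 cysteine cathepsins of the papain family, 5 other proteases and thiol enzymes, the precursor genes Grn and Psap, 9 glycosidase genes, 5 genes that handle lipids, 7 membrane protein genes, 3 transcription factor genes and the autophagy receptor gene Sqstm1. Each was read from a probe set annotated with that gene symbol alone, and where a gene had several such probe sets the one with the highest mean over the arrays was kept. All 41 were measured, out of 19937 genes on the arrays, and Mitf was the only member with more than 1 such probe set. Expression was measured on 4 one-colour Affymetrix arrays of mouse glioma cells, 2 arrays per group. In both groups C57/Bl6 embryos received a retrovirus expressing PDGF-B and EGFP by injection at embryonic day 14, gliomas were dissected once symptoms appeared, and after trypsin digestion the EGFP-positive cells were collected on a flow sorter. The early-onset group, labelled low-grade, held 2 pools that each combined 2 tumours, and the late-onset group, labelled high-grade, held 2 single tumours. They are called pool 1, pool 2, tumour 1 and tumour 2 below. Time of onset, grade and pooling change together between the groups and cannot be told apart, and no untransduced brain or other control was among the arrays.

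Lysosomes are acidic organelles in which proteins, glycans, lipids and nucleic acids are broken down. Cathepsins are their main proteases, glycosidases and lipases remove sugars and lipids, and cofactors such as the saposins present lipids to the enzymes. Nearly all cells carry lysosomes, but macrophages and microglia, which digest what they engulf, express some cathepsins, above all cathepsin S, at high levels. The related factors TFEB, TFE3 and MITF activate many lysosomal genes through a shared promoter sequence.

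Most lysosomal genes were lower in late-onset cells, and the cathepsins were among those furthest down. Of the 41 genes, 23 fell and 0 rose at an adjusted p under 0.05, here termed called (limma fitted over all 19937 genes, Benjamini-Hochberg adjustment over all of them). That is 56.1% of the members called lower, while 8.12% of all genes were called lower and 6.59% higher. At an unadjusted p under 0.05 by limma, 28 members were lower and 0 higher. Of all 19937 genes, 3067 were lower and 2900 higher at that threshold, the base for the unadjusted counts below. The median log2 fold change of the members, late-onset minus early-onset, was -0.56, against -0.01 over all genes. Of the 23, 12 were at least 2-fold lower, 4 at least 4-fold and 2 at least 8-fold, while 3.53% of all genes were called and at least 2-fold lower. The groups did not overlap, with both tumours below both pools, in 32 of the 41 genes, and in 1 gene, Manba, both tumours lay above both pools. Over all genes the groups did not overlap in 58.9%, with the tumours below in 30.4% and above in 28.5%. The remaining 18 members were not called, and their log2 fold changes ran from -0.94 for Ctsc to 0.37 for Ctsk.

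**Figure D1:**
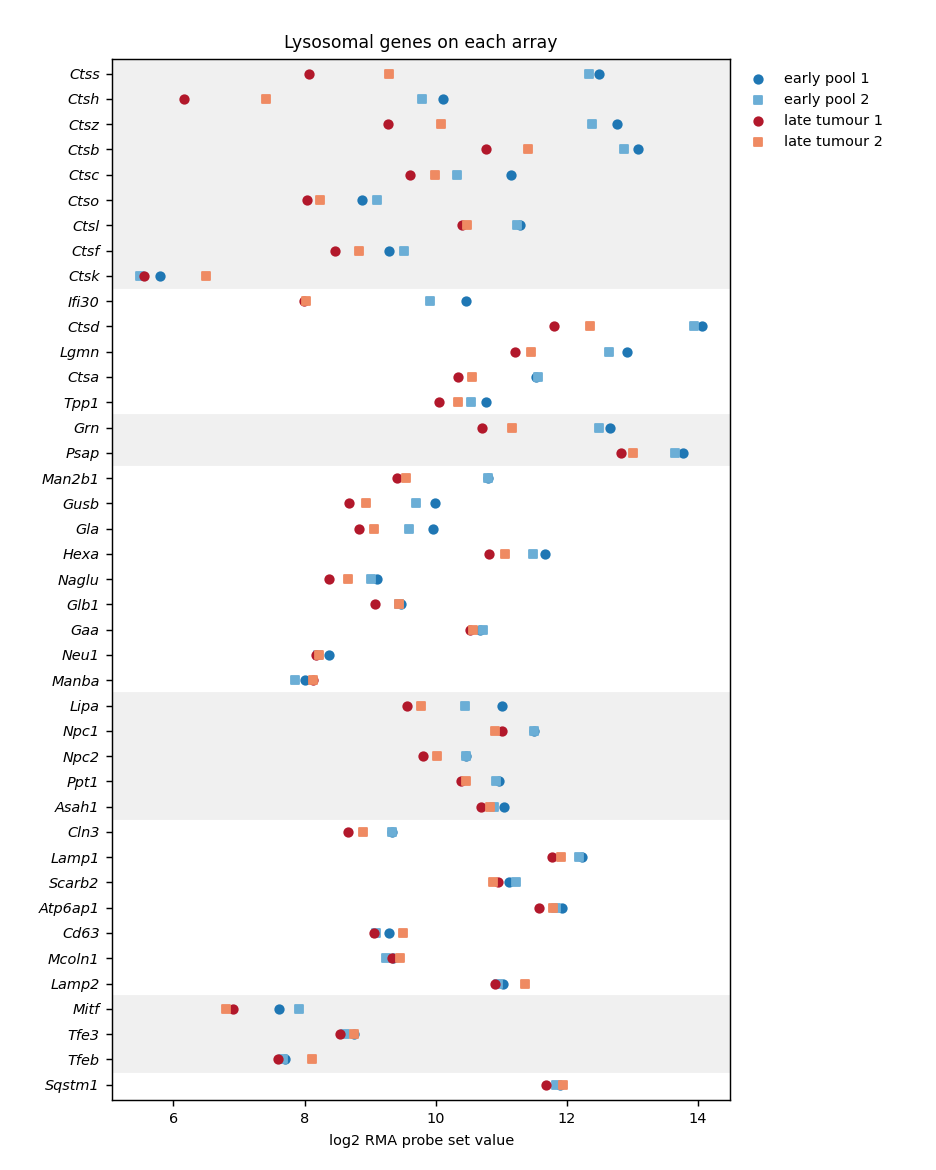
Log2 RMA value (horizontal axis) of each of the 41 lysosomal genes (rows, grouped by role in the shaded bands) on each of the 4 arrays; blue marks are the early-onset pools, red and orange marks the late-onset tumours. Ctss lies at 12.50 and 12.34 in the pools and at 8.07 and 9.29 in the tumours, whereas the marks of Sqstm1, Mcoln1 and Tfe3 overlap.

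Marker genes of microglia and macrophages moved with the lysosomal genes. Of 24 such markers, 22 fell and 0 rose in the limma fit (23 and 0 at an unadjusted p under 0.05), at a median log2 fold change of -3.72. Their summed linear value was 45228 and 38636 in the pools and 2737 and 4142 in the tumours. The 2 markers not called were Tmem119 (-1.13, adjusted p 0.0688 by limma) and Irf8 (-0.08, adjusted p 0.679), and for Irf8 the groups overlapped. Csf1r, the receptor on which macrophages depend, stood at 11.37 and 11.25 in the pools and at 7.00 and 7.41 in the tumours. The part of these cells in the values of the lysosomal genes was not tested. In sorted bulk cells, fewer cells of a type and less RNA per cell cannot be told apart. Markers of oligodendrocyte progenitors were high on every array. The median log2 value of Olig1, Olig2, Sox10 and Pdgfra ranged from 12.37 to 12.66, and their summed linear value from 23732 to 29958. Of these 4 genes 1 fell, Pdgfra, by 0.45 (limma adjusted p 0.041), 2 were lower at an unadjusted p under 0.05, and 3 stood lower in both tumours than in both pools. Of 6 monocyte and granulocyte markers 1 fell, with 2 lower at an unadjusted p under 0.05, and of 8 T and NK cell markers 0 were called by limma, with 0 at an unadjusted p under 0.05. Of 5 astrocyte markers 1 fell, 4 were lower at an unadjusted p under 0.05, and all 5 stood lower in both tumours than in both pools, at a median log2 fold change of -1.25. Of 5 neuron markers 4 fell and 1 rose. Those that fell were Snap25 (-1.85), Syt1 (-1.14), Rbfox3 (-0.81) and Gad1 (-0.71), and the one that rose was Tubb3 (1.86). Of 4 mature oligodendrocyte markers 2 fell, at a median of -1.02, and of 7 endothelial markers 0 were called by limma, with 0 at an unadjusted p under 0.05. The part of these other cell types in the values of the lysosomal genes was not tested either. Of 6 pericyte and fibroblast markers 1 fell, Rgs5, with tumour 2 (4.91) below both pools. Dcn, Col1a1 and Acta2 were high in tumour 2 alone, at 9.23, 10.23 and 10.31, against 4.96, 7.26 and 7.43 in tumour 1. Pdgfrb was also highest in tumour 2 (7.93), whereas Cspg4 was lowest there (11.19).

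The promoters of the members show which of them carry the letters that TFEB-type factors bind. RefSeq windows of 300 bases (GRCm38.p6, 250 before the start of transcription and 50 from it) were at hand for 37 members, in 46 windows; Asah1, Ctsb, Ctsh and Npc1 had none. The E-box CACGTG, which reads the same on both strands, stood in 28.3% of the member windows and in 7.15% of all 32851 windows. Its longer form TCACGTGA, which contains it, was in 13.0% of member windows and 0.974% of all, and the full CLEAR form, with a further G before and C after it, in 1 member window (2.17%), that of Cln3, and 0.326% of all. Windows of called members held the E-box in 8 of 26 cases and those of the other members in 5 of 20. For TCACGTGA it was 5 of 26 and 1 of 20. The letters GAGGAAGT, read on either strand and bound by the macrophage factor PU.1, were in 8.70% of member windows (Ctsc, Ctss, Gla and Gusb) and 3.20% of all. The PU.1 letters stood in 3 of 26 windows of called members and in 1 of 20 of the others. Whether these shares differ between called and uncalled members was not tested. A match is a description of the letters in the window, not of binding. The 6 windows below were chosen to show a called member with the PU.1 letters alone (Ctss), called members with E-boxes (Ctsd, Cln3 and Gla, the last with both motifs) and uncalled members with E-boxes (Lamp1 and Mcoln1). Capitals mark the E-box with its flanks where these match, or the PU.1 letters.
Ctss (chr3:95526536-95526835, plus strand): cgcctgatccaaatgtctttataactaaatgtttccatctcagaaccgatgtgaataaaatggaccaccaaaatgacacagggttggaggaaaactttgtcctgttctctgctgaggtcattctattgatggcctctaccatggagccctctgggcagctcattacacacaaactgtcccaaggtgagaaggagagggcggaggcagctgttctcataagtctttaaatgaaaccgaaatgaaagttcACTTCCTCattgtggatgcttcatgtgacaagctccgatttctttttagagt
Ctsd (chr7:142387778-142388077, minus strand): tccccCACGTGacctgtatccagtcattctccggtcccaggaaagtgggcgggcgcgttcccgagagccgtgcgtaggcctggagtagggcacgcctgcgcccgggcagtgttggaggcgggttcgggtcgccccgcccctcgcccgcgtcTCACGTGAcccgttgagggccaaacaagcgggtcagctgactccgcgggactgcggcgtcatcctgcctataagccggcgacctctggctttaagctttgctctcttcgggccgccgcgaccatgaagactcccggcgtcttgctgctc
Cln3 (chr7:126583187-126583486, minus strand): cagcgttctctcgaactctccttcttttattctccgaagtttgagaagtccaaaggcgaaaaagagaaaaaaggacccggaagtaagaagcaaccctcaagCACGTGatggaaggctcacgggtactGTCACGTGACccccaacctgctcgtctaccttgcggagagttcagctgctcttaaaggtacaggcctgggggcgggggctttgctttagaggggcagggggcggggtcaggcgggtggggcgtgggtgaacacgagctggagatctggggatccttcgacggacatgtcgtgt
Gla (chrX:134600956-134601255, minus strand): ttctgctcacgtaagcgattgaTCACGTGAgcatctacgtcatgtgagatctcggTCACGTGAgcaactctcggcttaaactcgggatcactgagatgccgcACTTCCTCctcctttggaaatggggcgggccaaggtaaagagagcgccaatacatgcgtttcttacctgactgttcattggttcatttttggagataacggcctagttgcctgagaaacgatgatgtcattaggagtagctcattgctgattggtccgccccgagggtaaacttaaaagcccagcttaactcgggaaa
Lamp1 (chr8:13158911-13159210, plus strand): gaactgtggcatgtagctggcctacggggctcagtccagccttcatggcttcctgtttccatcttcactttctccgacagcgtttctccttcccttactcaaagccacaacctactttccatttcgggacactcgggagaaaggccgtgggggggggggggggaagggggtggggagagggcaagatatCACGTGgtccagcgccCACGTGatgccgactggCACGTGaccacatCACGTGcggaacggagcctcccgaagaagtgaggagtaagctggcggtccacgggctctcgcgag
Mcoln1 (chr8:3500269-3500568, plus strand): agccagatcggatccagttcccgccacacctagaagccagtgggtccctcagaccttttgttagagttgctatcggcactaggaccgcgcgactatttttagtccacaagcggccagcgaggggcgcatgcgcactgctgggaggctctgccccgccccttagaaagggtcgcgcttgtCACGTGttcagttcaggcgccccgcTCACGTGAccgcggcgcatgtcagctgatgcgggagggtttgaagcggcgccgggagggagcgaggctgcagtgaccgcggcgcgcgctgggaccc
The Lamp1 window held 4 E-boxes and the Mcoln1 window 2, as many as that of Ctsd, and the values of these genes are given below. In the Ctss window the PU.1 letters lie on the reverse strand, as ACTTCCTC, and begin at base 249 of 300.

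Among the papain-family cathepsins 7 of 9 fell, and 3 of the family were the members that fell furthest. Cathepsin S, an endopeptidase that trims the invariant chain of MHC class II, stood at 12.50 and 12.34 in the pools and 8.07 and 9.29 in the tumours. Ctss was therefore 13.4-fold lower in late-onset cells (log2 fold change -3.74, SE 0.39, adjusted p 0.00646 by limma). Both tumours lay far below both pools, and tumour 1 was the lower. Ctsh, an aminopeptidase, stood at 10.11 and 9.80 against 6.16 and 7.42 (-3.17, SE 0.41, adjusted p 0.0106). Ctsz, a carboxypeptidase, stood at 12.77 and 12.39 against 9.27 and 10.09 (-2.90, SE 0.29, adjusted p 0.00608). Ctsb, the widely expressed cathepsin B, stood at 13.08 and 12.88 against 10.76 and 11.40 (-1.90, SE 0.23, adjusted p 0.00864). In each of these 4 genes the tumours differed from each other by more than the pools did, with tumour 2 nearer to the pools. The calls of Ctsh and Ctsb were lost when a pool was left out: Ctsh without pool 1 (log2 fold change -3.01, adjusted p 0.0612) or pool 2 (-3.33, 0.0536), and Ctsb without pool 1 (-1.79, 0.0541).

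The other cathepsins of this family were closer between the groups. Ctsl, the ubiquitous endopeptidase cathepsin L, stood at 11.29 and 11.24 in the pools and 10.41 and 10.48 in the tumours, so that replicates nearly coincided (-0.82, SE 0.10, adjusted p 0.0086). Ctso stood at 8.87 and 9.10 against 8.04 and 8.23 (-0.85, SE 0.13, adjusted p 0.0161). Ctsf stood at 9.28 and 9.52 against 8.46 and 8.83 (-0.76, SE 0.16, adjusted p 0.0395). These 3 genes fell by less than 2-fold, and their calls were lost when either pool was left out, in fits with fewer arrays. The log2 fold changes kept their sign. Without pool 1 they were -0.80 for Ctsl, -0.96 for Ctso and -0.88 for Ctsf, and without pool 2 they were -0.84, -0.74 and -0.64. The Ctsf call was also lost without tumour 1 (adjusted p 0.0784) and after each array's median was subtracted (0.0519). Ctsc, or dipeptidyl peptidase 1, which activates granule proteases, was not called: it stood at 11.15 and 10.33 against 9.61 and 9.99, with pool 1 well above the other 3 samples (-0.94, SE 0.29, adjusted p 0.0989).

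Ctsk, a collagen-degrading protease best known from osteoclasts, was the cathepsin with the opposite sign. It stood at 5.79 and 5.50 in the pools, 5.54 in tumour 1 and 6.49 in tumour 2, at a log2 fold change of 0.37 (SE 0.32, adjusted p 0.508). Tumour 2 alone was high and the groups overlapped. Without tumour 1 the gene was called higher (0.85, adjusted p 0.0424), and without tumour 2 its sign turned (-0.10, adjusted p 0.765). Tumour 2 was also the sample in which Dcn, Col1a1 and Acta2, from the pericyte and fibroblast list, were high. Cspg4 and Rgs5 of the same list were not high there. The part of such cells in the Ctsk value was not tested.

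Of the 5 other proteases and thiol enzymes, 4 fell, each by more than 2-fold. Ifi30, the thiol reductase GILT, which opens disulphide bonds for antigen processing, stood at 10.46 and 9.91 in the pools and at 7.98 and 8.02 in the tumours (-2.18, SE 0.19, adjusted p 0.00463). The tumours nearly coincided for Ifi30, whereas for Ctss, Ctsh and Ctsz they lay 0.82 to 1.26 log2 units apart. Ctsd, the main aspartic protease of the lysosome, stood at 14.06 and 13.94 against 11.81 and 12.35 (-1.92, SE 0.20, adjusted p 0.0061). Lgmn, the asparaginyl endopeptidase legumain that processes cathepsins, stood at 12.91 and 12.64 against 11.20 and 11.46 (-1.45, SE 0.15, adjusted p 0.0061). Ctsa, the serine carboxypeptidase that also shields 2 partner glycosidases, stood at 11.54 and 11.57 against 10.34 and 10.55 (-1.10, SE 0.12, adjusted p 0.00646). In all 4 the pools and tumours were clearly apart. These calls, with those of Ctss, Ctsz, Grn and Man2b1, were the 8 that held in each of the 13 alternative settings. Tpp1, the tripeptidyl peptidase deficient in a childhood ceroid lipofuscinosis, was not called (-0.46, SE 0.15, adjusted p 0.103), although its tumours, at 10.06 and 10.34, lay below its pools, at 10.77 and 10.54.

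Both secreted precursors that are cut in the lysosome fell. Grn encodes progranulin, whose loss causes lysosomal storage in neurons, and stood at 12.66 and 12.49 in the pools and 10.70 and 11.16 in the tumours (-1.64, SE 0.18, adjusted p 0.00704). Psap encodes prosaposin, the source of the saposins, and stood at 13.77 and 13.64 against 12.83 and 13.00 (-0.79, SE 0.12, adjusted p 0.014). The difference was larger than the spread within either group for both genes. The Psap call was lost without pool 1 (adjusted p 0.0877) or pool 2 (0.0692).

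The glycosidases divided, with 4 of 9 called lower and the other 5 not called. Man2b1, the acid alpha-mannosidase, had the smallest adjusted p of all members. It stood at 10.79 and 10.80 in the pools and 9.41 and 9.55 in the tumours, a 2.49-fold lower level (-1.32, SE 0.10, adjusted p 0.00349). Gusb, beta-glucuronidase, stood at 9.98 and 9.70 against 8.68 and 8.93 (-1.04, SE 0.15, adjusted p 0.0136). Gla, alpha-galactosidase A, stood at 9.96 and 9.60 against 8.82 and 9.06 (-0.84, SE 0.16, adjusted p 0.0298). Both tumours lay below both pools in each of these. Hexa, the alpha subunit of beta-hexosaminidase, stood at 11.66 and 11.48 against 10.81 and 11.06 (-0.64, SE 0.13, adjusted p 0.0354). Without pool 1 the calls of Gusb (adjusted p 0.0711), Gla (0.126) and Hexa (0.176) were lost, without pool 2 those of Gla (0.0582) and Hexa (0.115), and without tumour 1 those of Gla (0.0747) and Hexa (0.0813).

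The 5 uncalled glycosidases ranged from -0.54 to 0.20. Naglu, which degrades heparan sulfate, lay just past the threshold (-0.54, SE 0.13, adjusted p 0.0547), with tumours at 8.37 and 8.66 and pools at 9.10 and 9.02. It was called in 5 of the 13 alternatives: after quantile normalization, after cyclic loess, among genes above the lower quartile of level, with array weights, and without tumour 2. The 95% intervals of the log2 fold change were -0.57 to 0.18 for Glb1, beta-galactosidase, -0.39 to 0.09 for Gaa, acid alpha-glucosidase, -0.37 to 0.18 for Neu1, the lysosomal sialidase, and -0.07 to 0.46 for Manba, beta-mannosidase. Glb1 and Neu1 encode the enzymes that form a complex with the product of Ctsa, which fell. The intervals of Gaa, Neu1, Glb1 and Manba exclude a 2-fold change in either direction.

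**Figure D2:**
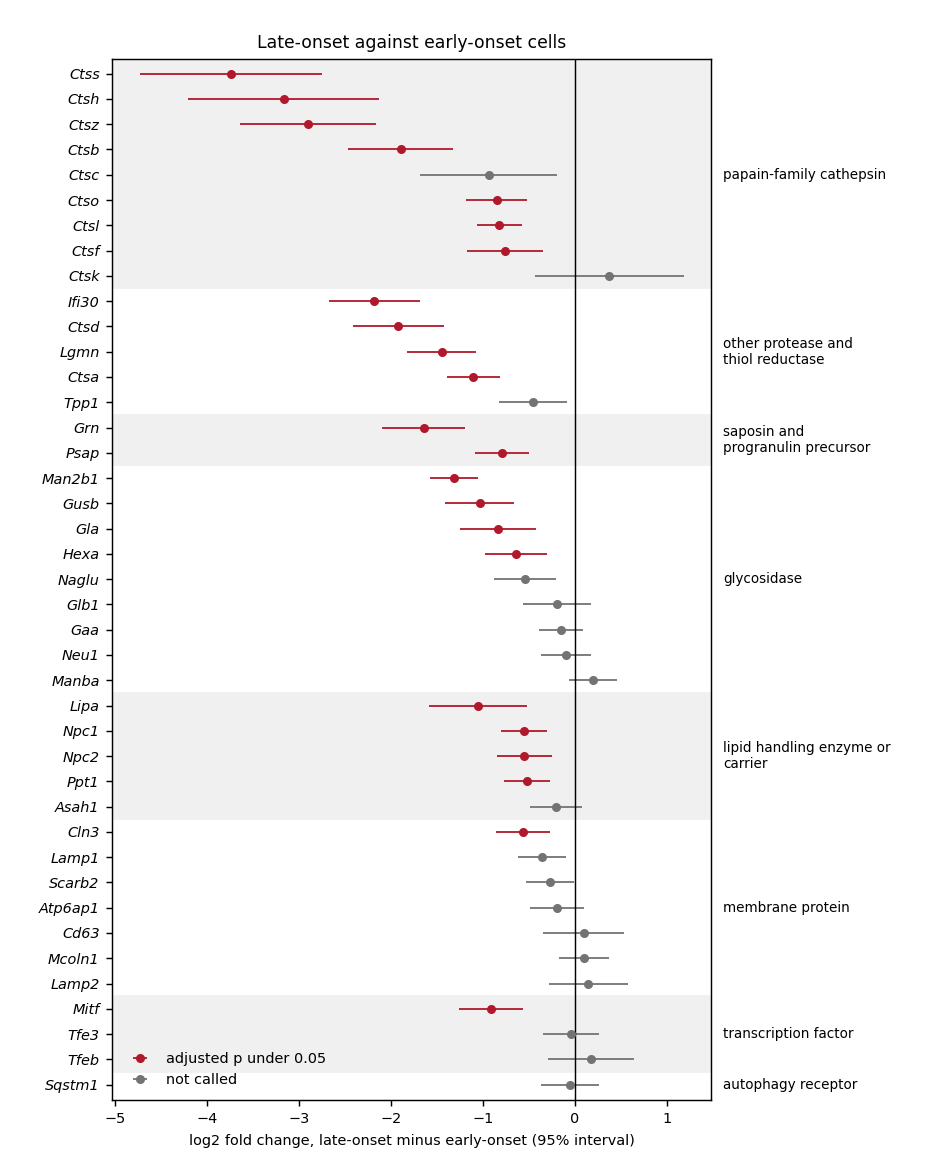
Log2 fold change of late-onset minus early-onset cells (horizontal axis) with its 95% interval from limma for each of the 41 genes (rows, by role); red marks are called at an adjusted p under 0.05, grey marks are not. Proteases, Grn, Psap and the lipid genes lie mostly left of 0, and 6 of the 7 membrane protein genes are grey.

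Genes that handle lipids fell in 4 of 5 cases, by smaller steps. Lipa, the acid lipase that splits cholesterol esters, stood at 11.02 and 10.44 in the pools and 9.57 and 9.78 in the tumours (-1.05, SE 0.21, adjusted p 0.0326). Npc1 and Npc2, whose products pass cholesterol out of the lysosome, fell almost equally. Npc1 stood at 11.50 in both pools and at 11.00 and 10.90 in the tumours (-0.55, SE 0.10, adjusted p 0.0244). Npc2 stood at 10.46 in both pools and at 9.80 and 10.02 in the tumours (-0.55, SE 0.12, adjusted p 0.0372). Ppt1, a thioesterase that removes palmitate from proteins, stood at 10.97 and 10.92 against 10.38 and 10.46 (-0.52, SE 0.10, adjusted p 0.0276). The groups did not overlap in any of these 4, but all 4 calls were sensitive to single samples. The log2 fold changes moved less: without pool 1 they were -0.76 for Lipa, -0.55 for Npc1, -0.55 for Npc2 and -0.49 for Ppt1. Without pool 1 the adjusted p was 0.0874 for Lipa, 0.132 for Npc1, 0.169 for Npc2 and 0.154 for Ppt1. Without pool 2 it was 0.144 for Npc1, 0.181 for Npc2 and 0.142 for Ppt1. Without tumour 1 it was 0.0842 for Lipa, 0.0828 for Npc2 and 0.0701 for Ppt1, and without tumour 2 it was 0.0601 for Lipa, 0.0698 for Npc1 and 0.0559 for Ppt1. The Npc2 call was also lost after subtraction of array medians (0.0554). Asah1, acid ceramidase, was not called (-0.21, 95% interval -0.49 to 0.08, adjusted p 0.293).

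Of the 7 membrane protein genes 1 fell, Cln3, a gene of juvenile ceroid lipofuscinosis. It stood at 9.34 and 9.33 in the pools and 8.66 and 8.88 in the tumours (-0.56, SE 0.12, adjusted p 0.035). That call was lost without pool 1 (adjusted p 0.161), pool 2 (0.175) or tumour 1 (0.0779) and after subtraction of array medians (0.0522). Lamp1, a major structural glycoprotein of the lysosomal membrane, stood at 12.23 and 12.18 against 11.78 and 11.91 and was not called (-0.36, SE 0.10, adjusted p 0.0796), although its groups did not overlap. It was called lower after quantile normalization (-0.49, adjusted p 0.0331), after cyclic loess (-0.50, 0.0311) and with an intensity trend in the variance model (-0.36, 0.039). Lamp2, its partner with a part in chaperone-mediated autophagy, stood at 11.03 and 10.95 against 10.91 and 11.36 (0.14, SE 0.17, adjusted p 0.636). Cd63, a tetraspanin of late endosomes and exosomes, stood at 9.28 and 9.08 against 9.06 and 9.50 (0.10, SE 0.17, adjusted p 0.775). In both of these tumour 2 was the highest sample and tumour 1 the lowest. Mcoln1, the calcium channel TRPML1, had a log2 fold change of 0.10 (95% interval -0.17 to 0.37). Scarb2, the sorting receptor of glucocerebrosidase, stood at -0.27 (-0.53 to -0.01, adjusted p 0.153), and Atp6ap1, an accessory subunit of the proton pump, at -0.19 (-0.49 to 0.10). None of the 7 intervals reached a 2-fold change.

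Of the transcription factor genes, Mitf fell and the other two were not called. Mitf, best known from pigment cells and osteoclasts, stood at 7.61 and 7.92 in the pools and 6.91 and 6.80 in the tumours (-0.91, SE 0.14, adjusted p 0.0154). Both tumours were lower than both pools, and tumour 1 was here not the lower of the pair. The call was lost without pool 2 (-0.76, adjusted p 0.0784), and as the mean of its 2 probe sets the gene stood at -0.52. The other probe set was dim, between 3.52 and 3.73 on the 4 arrays. Tfeb stood at 7.70 and 7.68 against 7.60 and 8.11 (0.17, SE 0.18, adjusted p 0.612). Tfe3 stood at 8.75 and 8.62 against 8.54 and 8.75 (-0.04, SE 0.12, adjusted p 0.864), and its sign turned after subtraction of array medians (0.016). In both, tumour 1 was the lowest sample and tumour 2 the highest. Sqstm1, which encodes the autophagy receptor p62, a target of TFEB, stood at 11.89 and 11.83 against 11.68 and 11.94 (-0.05, SE 0.12, adjusted p 0.833), and stood at 0.0057 after subtraction of array medians. Its 95% interval, -0.37 to 0.26, excludes a 2-fold change.

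The late tumours differed from each other in a common direction. Of the 41 members 37 were higher in tumour 2 than in tumour 1, with a median difference of 0.22, whereas the median over all genes was 0.00. Among the 12 members that were called and at least 2-fold lower, all 12 were higher in tumour 2, with a median difference of 0.36 and a range of 0.03 for Ifi30 to 1.26 for Ctsh. The 11 members called at under 2-fold had a median of 0.19. The 18 members that were not called had a median of 0.24, with 16 higher in tumour 2. Among them, the 8 whose groups overlapped had a median of 0.35, with all 8 higher in tumour 2. Those 8 were chosen by overlap, which a high tumour 2 favours. The largest differences were in Ctsh (1.26) and Ctss (1.22), the members that fell furthest. Ctsk, which was not called, came next (0.95), whereas Ifi30, with a log2 fold change of -2.18, had 0.03. A relation between this difference and the size of the fall was not tested. The microglia and macrophage markers showed the same order, with 20 of 24 higher in tumour 2 and a median of 0.46. Between the pools, 7 of 41 members were higher in pool 2 (median -0.12), and 4 of 24 markers (median -0.27). Markers of some other cell types were also higher in tumour 2. That held for 5 of 6 pericyte and fibroblast markers (median 2.39) and 4 of 5 astrocyte markers (1.04). It also held for 4 of 4 mature oligodendrocyte markers (0.92), 7 of 7 endothelial markers (0.88) and 4 of 6 monocyte and granulocyte markers (0.11). Of the neuron markers 2 of 5 were higher there (median -0.06), and of the T and NK cell markers 1 of 8 (-0.11). Of the oligodendrocyte progenitor markers 1 of 4 was higher there (-0.03). None of these parts was tested.

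**Figure D3:**
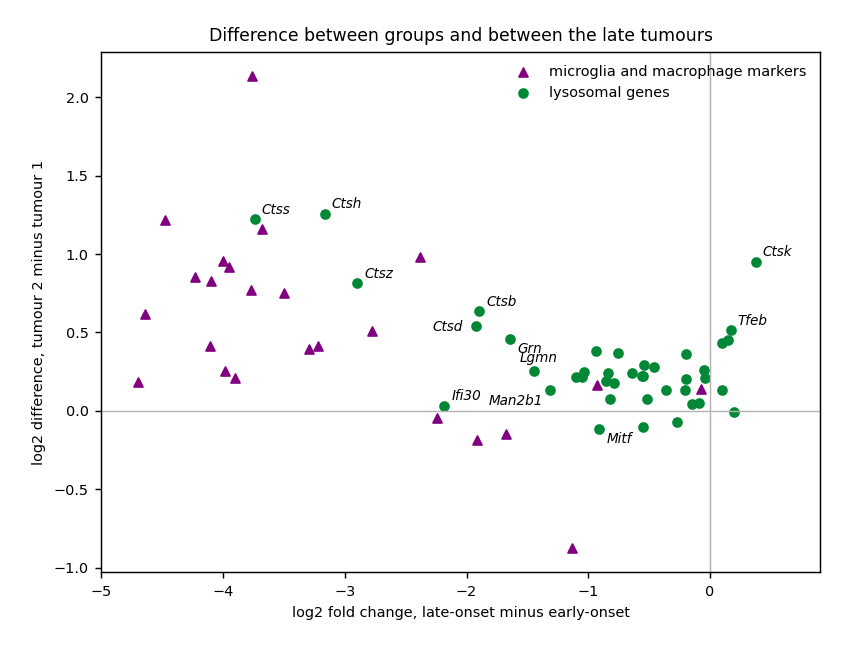
Log2 difference of tumour 2 minus tumour 1 (vertical axis) against the log2 fold change of late-onset minus early-onset cells (horizontal axis), 1 point per gene; green circles are the 41 lysosomal genes and purple triangles the 24 microglia and macrophage markers. Ctss, Ctsh and Ctsz lie among the triangles at the left, with differences of 0.82 to 1.26 between the tumours, while most members sit between -1 and 0.

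Among other genes of the lysosome, taken from lists of further pathway members, some also fell. Over all 138 measured genes of these lists, 26 fell and 4 rose, or 18.8% and 2.90%. Of 24 further hydrolases, 10 fell and 1 rose, with a median log2 fold change of -0.40. The one that rose was Hyal2, a hyaluronidase (0.42), named after its value was seen. Pla2g15, a lysosomal phospholipase, fell by 1.24 (adjusted p 0.00339), Naaa, an acid amidase, by 1.10 (0.0119), and Arsb, a sulfatase of dermatan sulfate, by 1.07 (0.0296). The Naaa call was lost without pool 2 (adjusted p 0.0586), and the Arsb call without pool 1 (0.0917) or pool 2 (0.158).

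Of 25 further membrane proteins and transporters, 6 fell and 0 rose by limma (12 and 1 at an unadjusted p under 0.05), and the 3 furthest down are genes with high expression in macrophages. Laptm5 stood at 12.18 and 11.97 in the pools and 7.62 and 8.49 in the tumours (-4.02, adjusted p 0.00309). Cd68 stood at 11.97 and 11.74 against 7.81 and 8.67 (-3.62, adjusted p 0.00372). Slc15a3, a peptide and histidine transporter, stood at 10.27 and 9.88 against 6.38 and 6.75 (-3.51, adjusted p 0.0019). Tumour 2 was again the higher of the pair in all 3, and the median of the list was -0.26.

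Among 7 inhibitors of cathepsins 3 fell and 0 rose. The limma fit gave 4 lower and 1 higher at an unadjusted p under 0.05. Cst7, the myeloid cystatin F, which blocks cathepsin C, stood at 9.48 and 9.80 in the pools and 5.95 and 5.87 in the tumours (-3.73, SE 0.14, adjusted p 0.0013). Cst3, the secreted cystatin C, fell by 1.10 (adjusted p 0.0119), and Serpinb1a by 0.52 (0.033). The Cst3 call was lost without pool 1 (adjusted p 0.0528) or pool 2 (0.0769), and the Serpinb1a call without any one of the 4 samples (0.0763 to 0.179).

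Isoforms of the proton pump moved in both directions, and the part of neurons, whose markers are given above, in these values was not tested. Of 9 subunits of its cytosolic V1 part, 1 fell, Atp6v1g2, an isoform enriched in neurons (-1.17, adjusted p 0.0123), lost without pool 2 (0.0618). Of 9 genes of the membrane-bound V0 part and its accessory proteins, 3 fell and 1 rose. Among the isoforms of the large a subunit, Tcirg1, the a3 isoform of osteoclasts and macrophages, fell by 1.30 (adjusted p 0.0078). Atp6v0a1, the isoform prominent in neurons, fell by 0.69 (0.0207), and Atp6v0a2, prominent in the Golgi and named after its value was seen, rose by 0.63 (0.0187). Atp6v0d2, an osteoclast and macrophage isoform of the d subunit, was dim (4.91 and 5.17 against 4.31 and 4.37) and fell by 0.70 (0.0228). The Atp6v0a1 call was lost without pool 1 (0.12), pool 2 (0.0837) or tumour 2 (0.0587), and the Atp6v0d2 call without any one of the 4 samples (0.0548 to 0.126).

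Genes that build, sort and regulate lysosomes were mostly not called, as was true of all genes, of which 14.7% were called in either direction. Of 15 genes of mannose 6-phosphate tagging and sorting, 1 rose and 0 fell by limma (4 and 1 at an unadjusted p under 0.05). Igf2r, the large receptor that carries tagged hydrolases to the lysosome, stood at 8.55 and 8.39 in the pools and 9.38 and 9.44 in the tumours (0.94, adjusted p 0.00804), and its call was lost without pool 2 (0.0571). Of 17 genes of mTORC1 control at the lysosome, 1 fell, Tfec, a myeloid relative of Tfeb placed in this list (-0.88, adjusted p 0.0161), lost without pool 1 (0.0877) or pool 2 (0.0571). Of 19 genes of autophagosome formation, Becn1 rose by 0.63 (0.0231) and Atg7 fell by 0.48 (0.0312). The Becn1 call was lost without pool 1 (0.107), pool 2 (0.144) or tumour 2 (0.0611), and the Atg7 call without any one sample (0.0629 to 0.177). Of 13 genes of late endosome tethering and fusion, 1 fell, the SNARE gene Vamp8 (-1.67, adjusted p 0.0286), lost without pool 1 (0.134) or pool 2 (0.117). The medians of these 4 lists lay between -0.11 and 0.09.

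**Figure D4:**
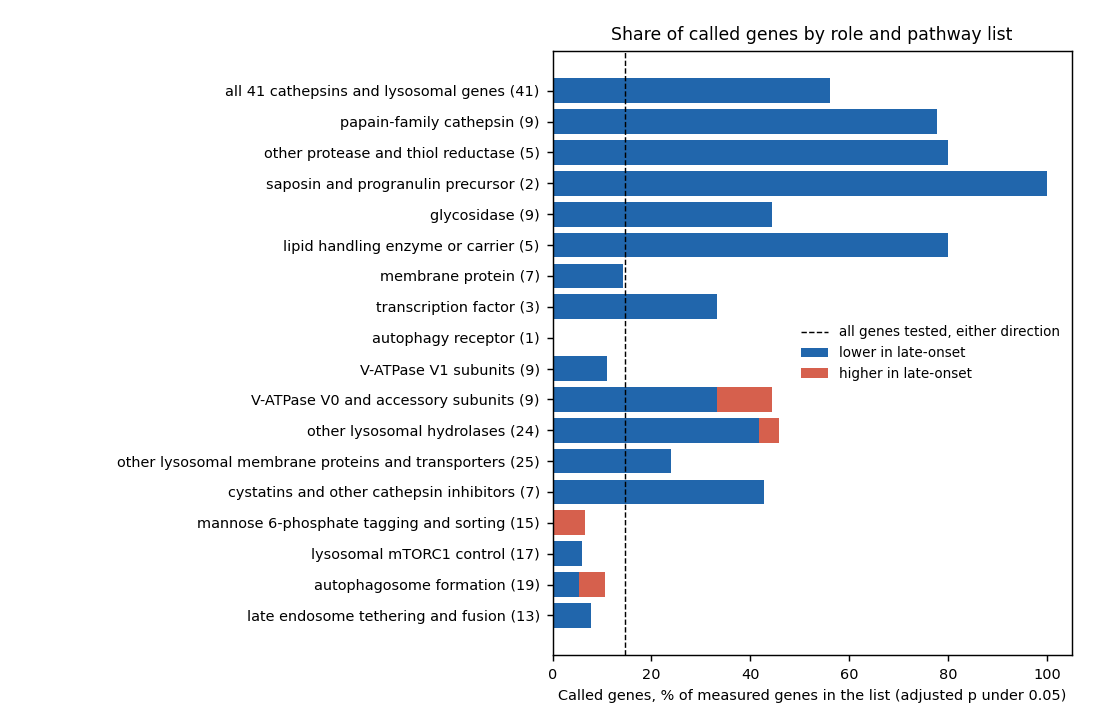
Share of measured genes called lower (blue) or higher (red) in late-onset cells at an adjusted p under 0.05 (horizontal axis, percent), for the 41 genes, for each of their roles and for each further list, with the number measured in brackets. The dashed line is the share of all genes called in either direction, 14.7%; proteases, precursors and lipid genes lie far to its right, and the sorting, mTORC1, autophagosome and fusion lists to its left.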

How the data were processed

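The authors deposited 1 value per probe set and array as log2 RMA summaries; RMA and affy version 3.4.2 are named, without parameters, per the submitters' processing notes, and no build is named. Where RMA brings arrays to a common distribution, a shift of all genes is invisible, and RMA understates fold changes of dim genes. Whether these arrays were normalized together and without others is not stated. Column medians ranged from 6.63 to 6.71, and the correlation over all probe sets was 0.992 between pools, 0.988 between tumours and 0.972 to 0.974 between groups. The platform annotation gave names: 21640 of 34760 probe sets had 1 symbol, 1321 several and 11799 none, and the last 2 kinds were left out. The test was limma's moderated one (version 3.58.1, R 4.3.3; no trend, 2 residual degrees of freedom), late-onset minus early-onset, without further scaling or filter, at a Benjamini-Hochberg adjusted p of 0.05 over 19937 genes. The procedure was tested on simulated data with independent normal noise of equal spread in both groups. That test does not cover a difference in spread between pools and single tumours. The precision is limited by 2 arrays per group, labelled biological replicates. The members, gene lists, markers and motifs were chosen with earlier results of these data known. Described in full, by rule, were called members and Tfeb, Tfe3, Mitf, Ctsb, Ctsl, Cd63, Lamp1 and Sqstm1, with up to 3 called genes per further list, the largest by log2 fold change; other members, Atp6v0a2, Hyal2 and the markers named were chosen after their values were seen. Over all probe sets, samples of equal replicate number did not deviate together (r = 0.0165), so the number was used only to name a sample. This check cannot exclude a pairing that acts on some of the genes, and a fit with a replicate block is given below. A summed linear value adds 2 to the power of the log2 values over a list.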

Additional observations from a re-analysis of the deposited data

How the results depend on the processing

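No called member changed sign in any of the 13 alternatives, and 20 of the 23 calls held under each of the 8 that kept all samples and used no block. Leaving out 1 sample, with a lone sample assumed to vary like the other group, gave 9 to 21 members called lower, 0 to 1 called higher, a member median of -0.69 to -0.52, and 850 to 2577 genes called in all. With a replicate block, 16 members and 1833 genes were called, with the member median at -0.56; the Gla, Hexa, Lipa, Ppt1, Npc1, Npc2 and Cln3 calls were lost, as were those of the further genes Vamp8 (adjusted p 0.0597), Becn1 (0.0589), Arsb (0.0726), Atg7 (0.0723) and Serpinb1a (0.0732). The member median was -0.68 after quantile normalization and -0.67 after cyclic loess, more than the within-group spread away; the cause was not tested. Signs turned only for members that were not called: after subtraction of array medians Tfe3 stood at 0.016 and Sqstm1 at 0.0057. With samples left out, Tfe3 ranged from -0.15 to 0.064, Sqstm1 from -0.18 to 0.077, Ctsk from -0.10 to 0.85, Lamp2 from -0.080 to 0.37, Cd63 from -0.12 to 0.31 and Tfeb from -0.089 to 0.43; the cause was not tested. The alternatives for the further pathway genes were added after seeing the data.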
